A study of Acipenser ruthenus with 35 samples.

Results

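The transcripts described here had their highest level in the central section of big oocytes of the sterlet (*Acipenser ruthenus*), a sturgeon. Of 49027 assembled transcripts, 13894 had a normalized count of at least 200 per oocyte in both oocyte sizes. For each of these, the share of every section in its oocyte total was averaged over the complete oocytes of a size. The central section, C, held the largest mean share in big oocytes for 1915 transcripts, which was 13.8% of the 13894. For 957 of them C also exceeded the most animal section, A, and the most vegetal section, E, in each of the 3 complete big oocytes. The 150 of these with the highest mean C share are the members of the set. The remaining 807 transcripts that met the same conditions with a smaller C share serve as a comparison below. A last condition, that sections B and C together hold less than 55% of the normalized counts in small oocytes, removed 0 transcripts.

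RNA was measured by TOMO-Seq, in which single frozen oocytes are sliced along the animal-vegetal axis and the slices are pooled into 5 sections for sequencing. The sections run from A (extremely animal) through B (animal), C (central) and D (vegetal) to E (extremely vegetal). Big oocytes (advanced vitellogenic, 1920 to 2100 µm in diameter) gave 17 libraries and small oocytes (early vitellogenic, 1320 to 1500 µm) gave 18 libraries, with 3 to 4 libraries in each of the 10 combinations of size and section. Big oocytes 1, 2 and 3 and small oocytes 5, 6 and 8 had all sections, whereas big oocyte 11 had only A and B and small oocyte 7 only C, D and E. All big oocytes came from a single female and all small oocytes from another. Libraries of big oocytes were also made from more total RNA than those of small oocytes. Oocyte stage, female and the amount of RNA per library therefore cannot be told apart between the sizes. The spread between oocytes is the spread within a female. Oocytes were untreated, and the animals carried no modification named in the labels. The sections to be sequenced were chosen after RT-qPCR of marker transcripts along the axis, so the orientation of the oocytes is not independent of the gradients of those markers.

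Oocytes of fishes and amphibians store RNA for the embryo, and part of that RNA is placed unevenly along the axis. RNAs kept at the vegetal pole include those of the germ plasm, which are known for their part in the formation of germ cells, whereas animal RNAs lie on the side of the oocyte to which the nucleus moves. A sliced oocyte also holds its nucleus in some sections and not in others, and yolk displaces cytoplasm as vitellogenesis goes on. None of the transcript identifiers matched any of the 80041 genes of the RefSeq annotation (0 matches), so members are given by their assembly identifiers and no function is attached to them.

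Libraries held 1816470 to 11348306 counts in big oocytes (median 4455798) and 1653598 to 6817459 counts in small oocytes (median 4397615.5). No library had a member at a count of 0. The axis was checked with the transcripts named in the primer list of the study. The animal markers exd2 and slc44a3 had 92.6% and 81.1% of their normalized counts in A of big oocytes, and 90.5% and 82.9% in A of small oocytes. The vegetal marker dnd1, a germ plasm RNA, had 53.1% in E and 1.72% in A of big oocytes, and 31.9% in E and 13.6% in A of small oocytes.

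The central excess of the members was shallow. An even spread puts 20% of a transcript's normalized counts in each section. The scaling sets the median transcript equal between sections, so shares are relative to the other RNAs of a section and not amounts. In big oocytes the mean C share ran from 23.4% to 27.4% among the members with a median of 24.1%, against a median of 19.9% over the 13894 transcripts. The other median shares of the members were 18.1% in A, 20.6% in B, 20.4% in D and 17% in E. E was the lowest section for 91 members, A for 54 and another section for 5. Members were selected on these section shares of big oocytes 1, 2 and 3, so the shares describe the set and are no result of it.

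**Figure D1:**
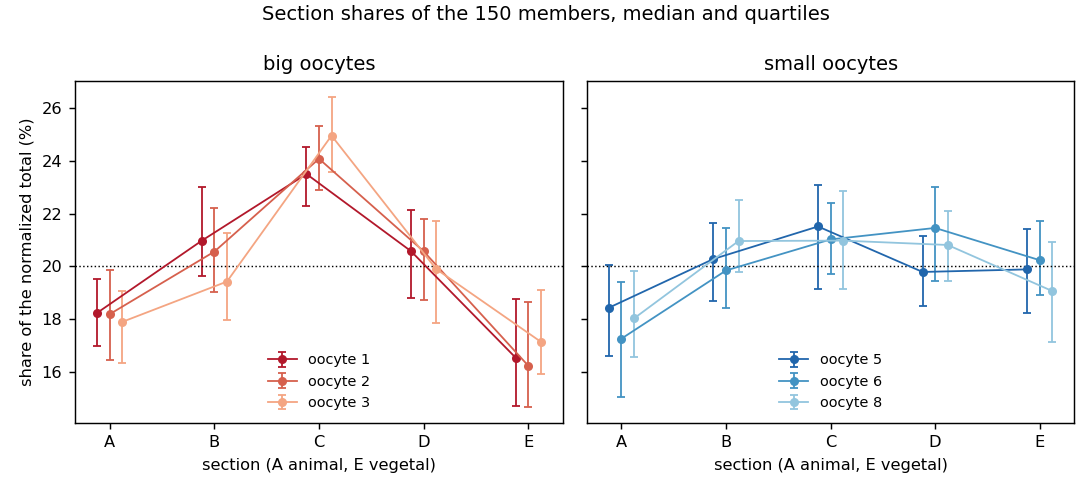
Percent of each transcript's normalized oocyte total in sections A to E. The 150 members are shown in each complete big oocyte (left) and each complete small oocyte (right). Points are medians, bars are quartiles over members and the dotted line is the even share of 20%. In big oocytes the member medians rise to C and are lowest in E, whereas in small oocytes they are flatter and lowest in A.

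The height of C differed between the big oocytes. C was the highest section for 131 members in oocyte 3, for 111 in oocyte 2 and for 93 in oocyte 1. It was highest in all 3 oocytes for 53 members, in 2 of them for 79 and in only 1 for 18. The depth of the C library ran the other way: 2416356 counts in oocyte 3, 4346304 in oocyte 2 and 9380728 in oocyte 1. The median member had 67.5, 114 and 232.5 counts in C of oocytes 3, 2 and 1, for which counting alone gives an error of 12.2%, 9.37% and 6.56%. The part of this error in the size of the C peak was not tested. The SD of a member's C share over the 3 oocytes had a median of 1.88 percentage points (range 0.222 to 6.25), and for 6 members it exceeded the distance of the C share from 20%.

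The threshold of the set cut through close values. TRINITY_DN47877_c0_g1_i3_1, the last member, had C shares of 23.8%, 23.4% and 23.1% in big oocytes 1, 2 and 3. TRINITY_GG_60599_c0_g1_i4_1, the first transcript left outside, had 21.9%, 23.2% and 25.2%. Their means differed by less than 0.1 percentage points, far less than the spread between oocytes.

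The highest C share belonged to TRINITY_DN48002_c3_g2_i2_1, at 27.4% ± 4.39 (SD, n = 3). In C it had 260, 255 and 359 normalized counts in big oocytes 1, 2 and 3. In B it had 291, 158, 293 and 247 normalized counts in oocytes 1, 2, 3 and 11, and in A 236, 242, 181 and 350. D held 157, 184 and 120 and E held 123, 165 and 154. Thus the vegetal sections were lower than C in every complete big oocyte, whereas B exceeded C in oocyte 1 and A of oocyte 11 was nearly as high as C of oocyte 3. In small oocytes 5, 6, 7 and 8 the same transcript had 283, 260, 231 and 248 normalized counts in C, against 193, 186 and 166 in A of oocytes 5, 6 and 8 and 205, 215, 229 and 156 in E. Normalized counts were scaled within each oocyte size, so they can be set side by side between sections of one size only.

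TRINITY_GG_29738_c1_g1_i1_1 was second, at 27.2% ± 2.93 (SD, n = 3), from 107, 54 and 34 counts in C of big oocytes 1, 2 and 3. Its normalized counts in C were 56.3, 62.8 and 70.9, against 38, 40.6 and 32.6 in A and 31.4, 42.6 and 43.3 in E. D of oocyte 1, at 60.6, was above C of that oocyte. The most abundant member, TRINITY_DN54336_c1_g1_i4_1, had a total of 6828 normalized counts per big oocyte and a much tighter profile. Its share in C was 23.5% ± 0.387 (SD, n = 3), from 1532.6, 1579.1 and 1698.4 normalized counts in oocytes 1, 2 and 3. E of this transcript held 996.8, 1026.8 and 1095.7, and A held 1199.1, 1265.9, 1291.2 and 1249.9, so neither end overlapped C. TRINITY_DN55143_c0_g1_i1_1, with a total of 6054, had 1491.0, 1367.3 and 1439.7 normalized counts in C, close to 1478.6, 1368.4 and 1382.8 in B, and 789.5, 847.4 and 919.3 in E. For this transcript B and C overlapped, so its peak covered both sections.

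For orientation only, the contrast that the rule used was fitted with edgeR. C minus the mean of A and E in big oocytes was called positive for 136 of 150 members, with 7.85% of all transcripts tested called in this direction, and the fitted difference had a median of 0.45 on the log2 scale (range 0.24 to 0.83). A test of any difference between sections called 136 members as well, with 54.1% of all transcripts called. Because the rule chose the members on this contrast, nothing is read from these counts.

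How far the central level held in an oocyte that did not choose the members was measured by leaving out each complete big oocyte in turn. The rule was applied to the remaining complete big oocytes, and the 150 transcripts it gave were measured in the oocyte left out. The background was every transcript at or above the minimum level without that oocyte, 13875, 13908 and 13898 transcripts for oocytes 1, 2 and 3. In each case the C share in the oocyte left out was lower than in those used and higher than the background. The median was 21.6% in oocyte 1 when it was left out, against 25.1% in the oocytes used. It was 21.5% in oocyte 2, against 24.9%, and 22.5% in oocyte 3, against 24.1%. The median over the background was 19.9%, 19.7% and 19.8% in oocytes 1, 2 and 3. The larger part of the excess over an even share was therefore lost in oocytes 1 and 2 and part of it in oocyte 3, and the median stayed above that of the background in each.

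C was the highest section in the oocyte left out for 39 of the 150 transcripts in oocyte 1 (26.0%), against 12.8% of the background. The count was 47 in oocyte 2 (31.3%, against 15.1%) and 79 in oocyte 3 (52.7%, against 17.7%). The chosen transcripts were thus above the background in each oocyte and most of all in oocyte 3, the one with the shallowest C library. Of the 1420, 1239 and 954 other transcripts that met the rule without oocytes 1, 2 and 3, with a smaller C share, 26.8%, 37.0% and 43.6% had C as the highest section in the oocyte left out. C exceeded both ends for 85, 84 and 114 of the 150, whereas 30.4%, 25.6% and 31.9% of the background did so. Only 76, 73 and 87 of the 150 transcripts chosen without oocytes 1, 2 and 3 were members of the set chosen with all of them. A high C share in some oocytes thus went with a C share above the background in the oocyte left out. The rule took out transcripts with A or E above C in the oocytes used, whereas the background kept them. The excess over the background therefore cannot tell a lasting C peak from the lack of high ends. Against the others that met the rule, the 150 had C highest no more often in oocytes 1 and 2. In oocyte 3 they had it more often (52.7%, against 43.6%).

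**Figure D2:**
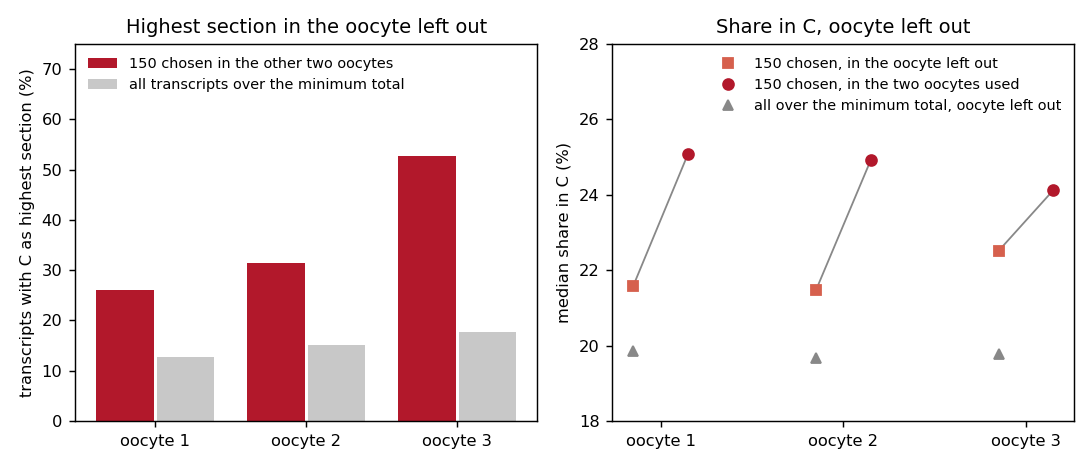
Left, percent of transcripts with C as the highest section in the big oocyte left out, for the 150 transcripts chosen without it and for all transcripts at or above the minimum level without it; right, median C share in percent of the 150 in the oocyte left out and in the oocytes used, and of all those transcripts in the oocyte left out. In each case the value in the oocyte left out (21.5% to 22.5%) lies below that in the oocytes used (24.1% to 25.1%) and above the background.

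The libraries of the incomplete oocytes had no part in the rule. In big oocyte 11, B exceeded A for 98 of 150 members (65.3%), against 52.5% of the 13894, with a median log2 difference of 0.15 for the members and 0.02 for the background. The median for members in oocytes 1, 2 and 3, which the rule used, was 0.22, 0.20 and 0.14. In small oocyte 7, C exceeded E for 77 members (51.3%, against 54.3%) with a median log2 difference of 0.01, and C exceeded D for 72 (48.0%, against 54.4%) with a median of -0.03. The members thus exceeded the background for B over A in oocyte 11, whereas their C in oocyte 7 was no more often above E or D than in the background. The rule limited A in oocytes 1, 2 and 3, and the background kept transcripts with a high A. No central peak is therefore read from B over A in oocyte 11.

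In small oocytes, which did not choose the members beyond the minimum level, the central section was the most frequent peak of the mean shares, but a lower one. The median C share was 21.3%, and the others were 18% in A, 20.5% in B, 20.7% in D and 19.8% in E. C was the highest mean section for 64 members, D for 29, B for 26, E for 21 and A for 10. Over the 13894 transcripts the highest section was C in 25.2%, D in 14.5%, B in 11.9%, E in 18.1% and A in 30.3%. Accordingly the members lay above the background for C and below it for A. The small oocytes differed in this. C was the highest section for 67 members in oocyte 5, 30 in oocyte 6 and 45 in oocyte 8, against 25.8%, 17.3% and 19.7% of the 13894. In oocyte 6 D was highest more often than C, for 55 members, against 24.1% of the 13894. In oocyte 8 B was highest for 42, against 18.2%. In all 3 complete small oocytes C was highest for 9 members, a count that was not made over the 13894. A was the lowest section in small oocytes for 103 members and E for 14, whereas in big oocytes E was the lowest most often. The rule limited A and E in big oocytes, and the lowest section was not counted over the 13894. The median share over the 13894 was lowest in E in both sizes, at 19.1% in big and 19.7% in small oocytes. C was above the mean of both ends in all 3 complete small oocytes for 71 members of 150, against 26.3% of the 13894. It was below that mean in all 3 for 7 members, which was not counted over the 13894.

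C minus the mean of A and E in small oocytes was tested with edgeR over all transcripts. It was positive at an adjusted p under 0.1 for 23 of 150 members (15.3%), against 4.59% of all transcripts tested and 8.49% of the 13894. Among the 807 other transcripts that met the rule, 157 passed (19.5%), with a median log2 difference of 0.11, against 0.16 for the members. The median total in small oocytes was 1272 normalized counts for the 807 and 376 for the members. The pass rates thus compare sets of unequal depth, and the part of depth in them was not tested. The difference was negative for 1 member, against 6.39% of all transcripts, 8.95% of the 13894 and 0 of the 807. The rule took out transcripts with a high end in big oocytes, so nothing is read from this low count. The median member had a log2 difference of 0.16, against -0.01 over all transcripts tested. All 23 positive members had C above the ends in each complete small oocyte. These oocytes also gave the calls, and the same was not counted over all called transcripts, so this too is a description. The count of positive members was 11 without small oocyte 6 and 12 without small oocyte 8, against 2.8% and 3.31% of all transcripts.

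TRINITY_DN53146_c0_g1_i1_1 had the largest positive difference. In small oocytes 5, 6, 7 and 8 it had 201, 200, 169 and 157 normalized counts in C, against 102, 98.4 and 122 in A of oocytes 5, 6 and 8 and 117, 145, 157 and 115 in E. C was above A in each of oocytes 5, 6 and 8, and no value of A or E reached the lowest C value, although E of oocyte 7 came close. The fitted log2 difference was 0.62 ± 0.11 (SE) with an edgeR adjusted p of 0.000215. It held 25.7% in C in big oocytes and 25.7% in small oocytes, with SDs of 2.57 and 2.69 percentage points. TRINITY_DN51062_c0_g1_i3_1 was second with 82.7, 72.6, 102 and 70.7 normalized counts in C, against 49.8, 50.6 and 51.8 in A and 72.7, 53.9, 64.7 and 51.7 in E (log2 difference 0.51 ± 0.14, SE; edgeR adjusted p = 0.0142).

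The single member with a negative difference was TRINITY_DN51310_c0_g2_i7_1. It had 74.6, 56.7, 70.8 and 89.3 normalized counts in C of small oocytes 5, 6, 7 and 8, against 93.0, 98.4 and 119 in A and 107, 97.9, 74.7 and 122 in E. C was below both ends in each of the 3 complete small oocytes. The log2 difference was -0.48 ± 0.13 (SE) with an edgeR adjusted p of 0.0165, which became 0.200 without oocyte 6. In big oocytes 1, 2 and 3 the same transcript had 76.8, 89.6 and 75.1 in C and 76.4, 51.5 and 72.0 in E, so that C of oocyte 1 was hardly above E.

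A test of any difference between sections in small oocytes called 16 members (10.7%), against 15.2% of all transcripts tested and 21.5% of the 13894. Most members therefore had no detectable unevenness in small oocytes at this depth. The count was 8, 9 and 10 without small oocytes 5, 6 and 8, against 10.6%, 11.0% and 12.5% of all transcripts. It was 7 with DESeq2 in place of edgeR, against 11.4%. It was 24 with TMM scaling, against 15.6%, and 31 with scaling by library totals, against 17.1%, so whether the members lay below or above the background depended on the scaling.

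The slope along the axis, called the gradient below, was the mean log2 level of the vegetal sections (D, E) less the mean of the animal sections (A, B), a contrast in which C takes no part. The rule still bounds it, since neither end may exceed C in big oocytes. In big oocytes the gradient was positive, that is vegetal, for 21 members at an edgeR adjusted p under 0.1, against 27.6% of all transcripts tested and 29.8% of the 13894. It was negative, that is animal, for 38 members, against 25.8% and 37.7%. The median member gradient was -0.07, against -0.00 over all transcripts, and members ran from -0.60 to 0.46. Over the 13894 the median was -0.06, so the members were close to transcripts above the same minimum level. Of the called members, 17 of 21 vegetal and 37 of 38 animal ones had their direction in every complete big oocyte. These oocytes also gave the calls, and the same was not counted over all called transcripts, so this is a description. With libraries scaled by their totals the split was 6 vegetal to 74 animal, against 21.5% and 36.4% of all transcripts. The median of all transcripts moved to -0.15 and that of the members to -0.22. The members thus lay 0.07 below all transcripts under either scaling. Without big oocyte 3 the vegetal count was 11, against 23.3% of all transcripts. Without big oocytes 1 and 2 the animal count was 25 and 24, against 22.5% and 22.4%.

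By these calls the members fall into groups that differ in their shoulders. The 38 animal ones had median shares of 19.5%, 22.4%, 24.1%, 19.2% and 14.8% from A to E, with a shoulder in B. The 21 vegetal ones had 16.0%, 17.9%, 23.9%, 22.4% and 19.7%, with a shoulder in D. The other 91 had 17.9%, 20.4%, 24.2%, 20.5% and 17.1%, which is nearly symmetric about C. The groups were formed on the gradient in the same oocytes that chose the members, so these shares describe them without a test.

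TRINITY_DN51062_c0_g1_i3_1 had the steepest animal gradient. In big oocytes 1, 2 and 3 it had 125, 130 and 128 normalized counts in E and 182, 179 and 169 in D, against 234, 241 and 227 in B and 210, 231 and 223 in A. Every value of D and E was below every value of A and B, and oocyte 11 added 217 in A and 214 in B. The gradient was -0.60 ± 0.07 (SE) with an edgeR adjusted p of 5.38e-08. TRINITY_DN48237_c0_g1_i1_1 had 65.5, 60.4 and 55.3 in E and 53.4, 55.3 and 90.6 in D, against 82.4, 102, 103 and 90.2 in B and 74.5, 105, 93.0 and 118 in A of oocytes 1, 2, 3 and 11. Only D of oocyte 3 reached into the range of the animal sections, and the gradient was -0.59 ± 0.12 (SE; edgeR adjusted p = 0.000206).

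TRINITY_GG_117528_c0_g1_i2_1 had the steepest vegetal gradient among the members. It had 151.4, 156 and 179 normalized counts in E and 175, 172 and 179 in D of big oocytes 1, 2 and 3, against 119, 146, 116 and 130 in B and 118, 116, 123 and 95.9 in A of oocytes 1, 2, 3 and 11. The vegetal values all lay above the animal ones, with a gradient of 0.46 ± 0.09 (SE; edgeR adjusted p = 7.17e-05). TRINITY_GG_14640_c1_g1_i1_1 was next, with 142, 142 and 157 in E and 164, 162 and 189 in D, against 134, 129, 126 and 137 in B and 110, 122, 113 and 124 in A (0.38 ± 0.08, SE; edgeR adjusted p = 0.000212). Its C values of 173, 158 and 194 in oocytes 1, 2 and 3 were close to those of D, so its peak spread over C and D.

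**Figure D3:**
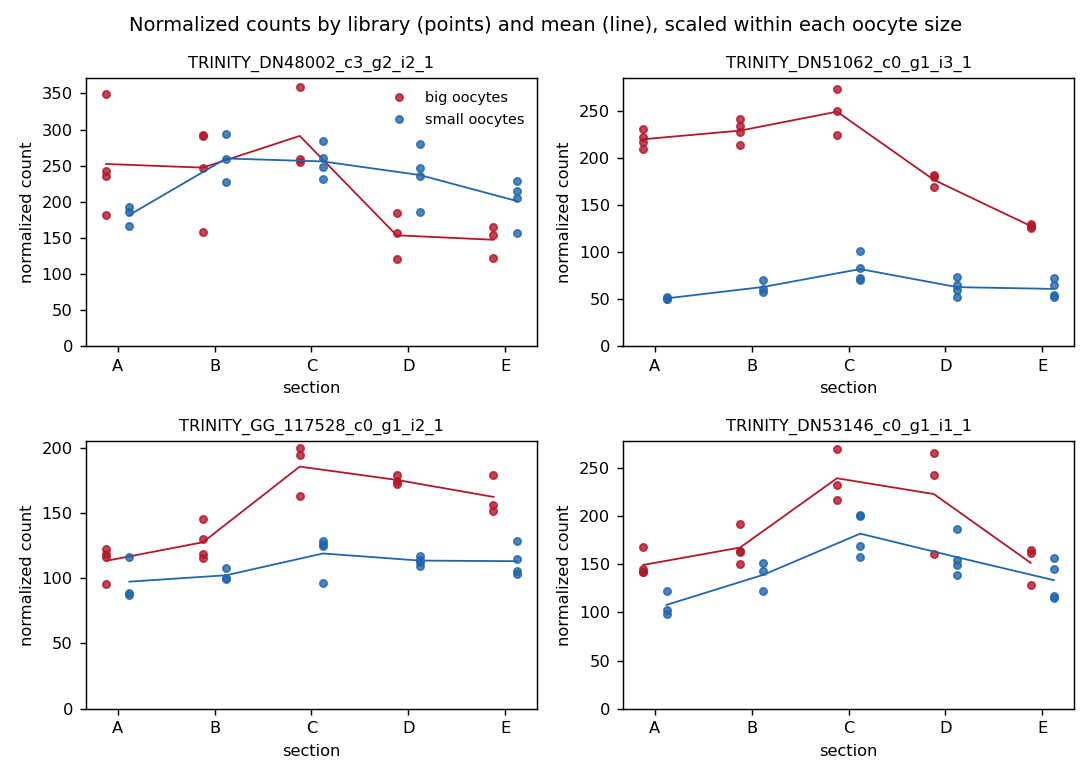
Normalized counts per library (points) and their means (lines) in sections A to E for TRINITY_DN48002_c3_g2_i2_1, TRINITY_DN51062_c0_g1_i3_1, TRINITY_GG_117528_c0_g1_i2_1 and TRINITY_DN53146_c0_g1_i1_1, big oocytes left of small oocytes, scaled within each oocyte size. In big oocytes the first of these varies widely between oocytes, the second falls toward E (125 to 130), the third is lowest in A (95.9 to 123), and the last has like profiles in both sizes.

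The neighbours of C gave fewer calls, and the rule bounds this contrast as well, since neither B nor D may exceed C in mean share. D was above B at an edgeR adjusted p under 0.1 for 15 members, against 16.6% of all transcripts tested, and below B for 8 members, against 13.0%. The log2 difference had a median of -0.03 over the members and 0.00 over all transcripts. With libraries scaled by their totals the split was 4 to 40, against 12.5% and 23.1% of all transcripts, whose median moved to -0.14. The count above B was 7 and 5 without big oocytes 2 and 3, against 12.4% and 12.3% of all transcripts. It was 9 with DESeq2, against 13.8%.

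In small oocytes the gradient was vegetal for 2 members, against 5.67% of all transcripts tested, and animal for 0, against 4.92%, at an edgeR adjusted p under 0.1. At an unadjusted p under 0.05 edgeR gave 13 vegetal members and 1 animal member. Calls at this threshold were not counted over all transcripts, and the rule limited A and E in big oocytes. Nothing is therefore read from this split. Among the other transcripts that met the rule, 4.71% were vegetal and 0.248% animal at the adjusted threshold. After adjustment DESeq2 gave 1 vegetal and 0 animal ones, against 4.57% and 3.32% of all transcripts. The median member gradient was 0.08, against -0.01 over all transcripts. The vegetal count was 10 without small oocyte 8 and 1 without small oocyte 6, against 5.62% and 4.67% of all transcripts. This count thus rests on few oocytes.

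The difference of the gradients was tested as the interaction of oocyte size and section. The rule bounds this contrast too, since neither end may exceed C in the big oocytes that enter it. The gradient was more animal in big than in small oocytes for 29 members, against 15.3% of all transcripts tested, and more vegetal for 4, against 18.7%, at an edgeR adjusted p under 0.1. Over the 13894 transcripts the shares were 25.4% and 22.5%. The median difference was -0.15 over the members and 0.02 over all transcripts. Values did not overlap between the complete oocytes of the sizes for 21 of the 29 and 3 of the 4. The calls were made on these same oocytes, and overlap was not counted over all called transcripts, so it is given as a description. Scaled by library totals the split was 56 more animal to 0 more vegetal, against 22.3% and 14.8% of all transcripts. The medians were -0.27 for members and -0.11 for all transcripts. Without big oocyte 1 the count of more animal members was 19, and without small oocyte 6 it was 14, against 13.0% and 12.4%.

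TRINITY_GG_81340_c0_g1_i1_1 had the largest shift to the animal side. In big oocytes 1, 2 and 3 it had 35.5, 49.7 and 59.5 normalized counts in E, against 55.4, 75.5 and 66.7 in A, so E was the lower end in each. In small oocytes 5, 6 and 8 it had 56.3, 62.9 and 59.6 in E, against 43.2, 31.4 and 45.5 in A, so E was the higher end in each. The difference between the sizes, big minus small, was -0.69 ± 0.17 (SE) with an edgeR adjusted p of 0.00182. For TRINITY_DN51062_c0_g1_i3_1, whose levels are given above, the difference was -0.68 ± 0.13 (SE; edgeR adjusted p = 6.86e-05) and its gradient in small oocytes was 0.04.

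Among members with a more vegetal gradient in big oocytes, TRINITY_GG_46416_c0_g1_i1_1 led those without overlap. It had 359, 245 and 313 normalized counts in E of big oocytes 1, 2 and 3. A held 234, 247, 258 and 334 in oocytes 1, 2, 3 and 11. In small oocytes 5, 6 and 8 the same transcript had 244, 219 and 236 in E, against 250, 226 and 218 in A. Among the complete big oocytes the ends were thus unequal in oocytes 1 and 3 only. A of oocyte 11 was above E of oocytes 2 and 3. The difference of the gradients was 0.33 ± 0.11 (SE; edgeR adjusted p = 0.0217), and the adjusted p was 0.233 without big oocyte 1 and 0.178 with scaling by library totals. For TRINITY_GG_117528_c0_g1_i2_1 the difference was 0.29 ± 0.12 (SE; edgeR adjusted p = 0.0669), a call that was lost under 8 of 13 alternatives, without big oocytes 1, 3 and 11 or small oocyte 8 among them (edgeR adjusted p = 0.111, 0.229, 0.101 and 0.304).

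The level of the members in each section was also set side by side between the sizes on a joint scale of all libraries. In big minus small oocytes the median log2 difference of the members was 0.05 in A, 0.07 in B, 0.29 in C, 0.04 in D and -0.14 in E. Over all transcripts these medians were 0.00, -0.01, 0.01, 0.04 and 0.04. The difference was above 0 for 115 members in C and for 48 in E. The value in C was used by the rule and that in E was limited by it, so they are given as a description.

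Summed over the 150 members, levels as CPM (counts scaled to the library total) in big oocytes were 4201 ± 235 in A (n = 4), 5181 ± 75.5 in B (n = 4), 5908 ± 332 in C, 4733 ± 155 in D and 3553 ± 247 in E (n = 3 each, SD). In small oocytes the sums were 4055 ± 135 in A and 4794 ± 170 in B (n = 3 each), and 4959 ± 13.4 in C, 4887 ± 188 in D and 4418 ± 156 in E (n = 4 each, SD). The members together thus made up less than 1% of the counts of any section. In small oocytes the sums of B, C and D lay within the spread of each other.

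Totals per oocyte were compared between the sizes on the joint scale, with 3 complete oocytes of each. At an edgeR adjusted p under 0.1 the total was higher in big oocytes for 53 members (35.3%), against 29.0% of all transcripts tested and 32.5% of the 13894. It was lower for 43 members (28.7%), against 28.6% and 31.5%. The shares of members in both directions were thus near the background. The median log2 difference was 0.05 over the members, against 0.01 over all transcripts, with a range from -1.22 to 1.28. Of the called members, 5 were more than 1.5-fold higher and 7 more than 1.5-fold lower, and 1 in each direction passed 2-fold. The scale sets the median transcript equal between the sizes, so these are changes relative to the other RNAs of the oocyte and not amounts per oocyte. Without overlap between the sizes were 53 of the 53 higher and 37 of the 43 lower members. The calls were made on the same oocytes, and overlap was not counted over all called transcripts. This is therefore a description, no further support and no trait of the members.

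Of the 21 vegetal members, 13 had a higher and 1 a lower total in big oocytes (median 0.23), while among the 4141 vegetal transcripts of the 13894 the shares were 53.4% and 18% (median 0.19). Of the 38 animal members 12 were higher and 15 lower (median -0.08), against 17.2% and 44.0% of 5240 (median -0.10). Of the other 91 members 28 were higher and 27 lower (median 0.04), against 31.0% and 29.3% of 4513 (median 0.02). The order of the medians was the same among the members and in the background. The difference between these groups was not tested.

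TRINITY_DN51062_c0_g1_i3_1 had the largest rise, with totals of 851, 901 and 891 scaled counts in big oocytes 1, 2 and 3, against 372, 349 and 343 in small oocytes 5, 6 and 8. The log2 difference was 1.28 ± 0.07 (SE) with an edgeR adjusted p of 4.24e-08. This was the member with the steepest animal gradient in big oocytes, and it held 24.7% in C in big oocytes and 24.5% in small oocytes. TRINITY_DN54043_c0_g2_i3_1 was next with 644, 564 and 633 in big oocytes, against 332, 298 and 361 in small oocytes (0.86 ± 0.09, SE; edgeR adjusted p = 7.17e-06). The groups of both transcripts were far apart.

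The largest fall was that of TRINITY_GG_27581_c1_g1_i1_1, which had 192, 231 and 207 scaled counts in big oocytes, against 503, 469 and 465 in small oocytes. Its log2 difference was -1.22 ± 0.09 (SE) with an edgeR adjusted p of 6.19e-07. TRINITY_DN45485_c0_g3_i1_1 had 579, 661 and 594 in big oocytes, against 1277, 1157 and 1150 in small oocytes (-0.997 ± 0.0712, SE; edgeR adjusted p = 3.88e-07). Its C share was 23.6% ± 0.222 in big oocytes and 22.3% ± 1.93 in small oocytes (SD, n = 3 each), so the fall was spread over the sections. TRINITY_DN48002_c3_g2_i2_1, first by C share, had 931, 877 and 967 in big oocytes, against 1339, 1295 and 1243 in small oocytes (-0.51 ± 0.06, SE; edgeR adjusted p = 1.85e-05).

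**Figure D4:**
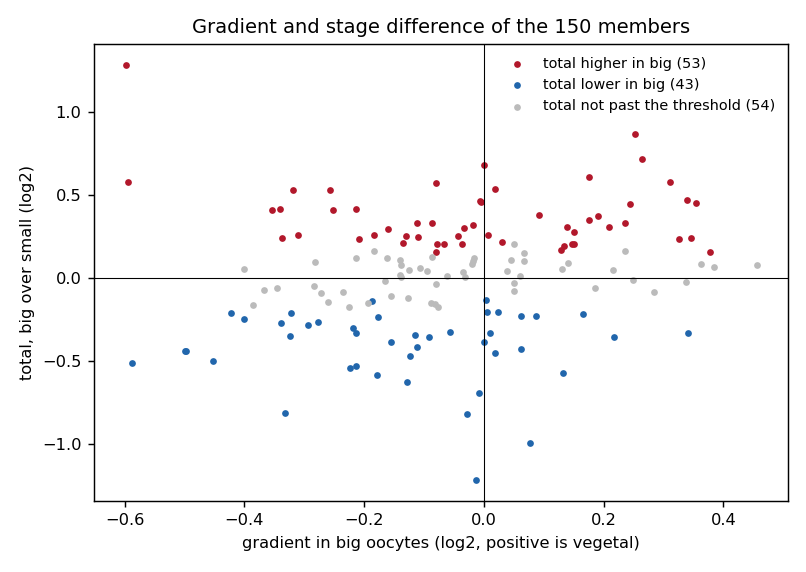
Log2 difference of totals per oocyte, big minus small, against the log2 gradient in big oocytes (vegetal minus animal sections) for the 150 members, colored by whether the total passed the edgeR threshold. Members lie on both sides of 0 on both axes, with 53 higher and 43 lower in big oocytes past the threshold.

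The members were less abundant than other transcripts that met the rule. Their total per oocyte had a median of 536 normalized counts in big oocytes (range 205 to 6828), against 1789 for the 807 others and 914 for the 13894. In small oocytes the median was 376, against 1272 and 669. In big oocytes 70 of the 150 were below 500 (46.7%), against 8.67% of the 807 and 26.4% of the 13894. With the 13894 ordered by total and cut into 4 bins of equal size, from the lowest to the highest, the members numbered 66, 48, 26 and 10, whereas all 957 transcripts that met the rule numbered 130, 178, 272 and 377. The 95th percentile of the C share of the 13894 also fell with abundance, with 23.2%, 22.7%, 22.5% and 22.4% in the same bins. Ranking by C share thus drew mostly on the less abundant transcripts, and the part of counting error in their shares was not tested.

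**Figure D5:**
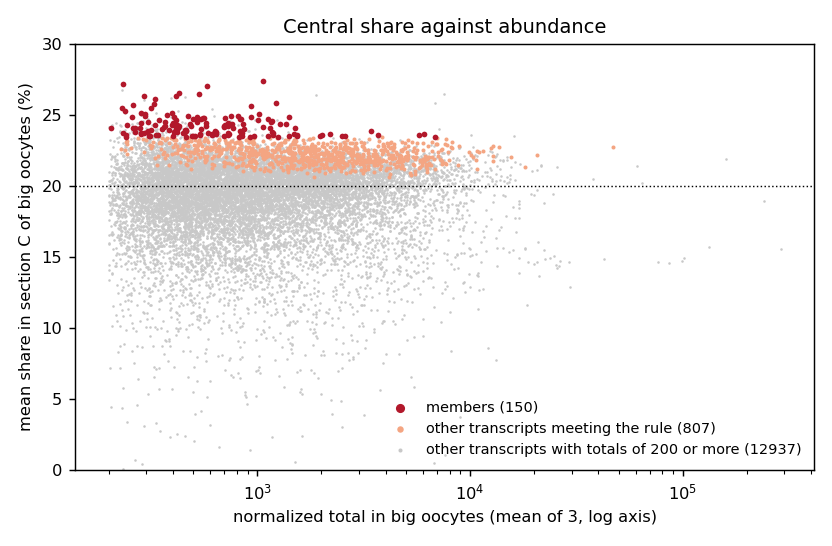
Mean C share in big oocytes in percent against the total per big oocyte in normalized counts (log axis) for the members, the 807 others that met the rule and the rest of the 13894. The members have C shares of 23.4% to 27.4% and lie toward low totals, with a median total of 536; the dotted line is the even share of 20%.

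The members came from as many assembly genes as there were members, 150, so no member shared a gene with another. Of the 150, 58 were from the genome-guided part of the assembly (38.7%), against 22.2% of the 13894 and 36.6% of the 49027. The genes of 14 members had 15 other isoforms above the minimum level. C was the highest section in big oocytes for 5 of these (33.3%), against 13.8% of the 13894, and their median C share was 21.4% with 13 above 20%. Isoforms of a gene share sequence, and estimated counts may be split between them, so these values are not independent of the members.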

How the data were processed

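Sterlet oocytes were cryosectioned along the animal-vegetal axis, rRNA was depleted and libraries were sequenced. Per the labels and methods, the authors trimmed reads with Trimmomatic and estimated counts per transcript of a combined de novo and genome-guided assembly with kallisto 0.43.1; the deposited count table held whole numbers (100% of values). The deposited normalized signal tables were counts that the authors divided by DESeq2 size factors within each oocyte size; they gave the shares and the rule. Isoforms share reads, so their estimated counts are uncertain. A total of 16 columns of totals per oocyte were not used. No 2 libraries were identical.

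Counts were tested with edgeR 4.0.16 (quasi-likelihood, robust, median-of-ratios scaling) over all transcripts with a mean scaled total above 20, Benjamini-Hochberg adjustment and a threshold of 0.1, as in the study. Within a size the fit held oocyte and section, since sections of an oocyte share that oocyte (deviations from the section means correlated at 0.184 on average within a big oocyte, against -0.0672 between big oocytes, and at 0.123 within a small oocyte, against -0.0422 between small oocytes). The interaction held size and section over 35 libraries, and totals were the summed scaled counts of 3 oocytes against 3, rounded. DESeq2 1.42.0, TMM and library total scaling, no filter, oocytes left out and the block were alternatives. Fits were tested on simulated data. The members, contrasts and named transcripts were chosen with earlier results of these data known. Transcripts named were those with the highest C share and total, and the 2 largest changes in each direction among called members with that direction in every complete oocyte. Replicates are oocytes of a single female per size, so p-values measure the spread within these females.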

Additional observations from a re-analysis of the deposited data

Results flagged for a closer look

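Among 75 sets of 4 libraries per section for the named members, 2 held a value far from the others of its set, where about 1 in 20 sets is expected by chance. TRINITY_GG_117528_c0_g1_i2_1 had 96.3 normalized counts in C of small oocyte 5, against 125 to 129 in the other small oocytes. TRINITY_DN53146_c0_g1_i1_1 had 167 in A of big oocyte 1, against 142 to 145 in the other big oocytes.

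The difference of the log2 gradient between the sizes, big minus small, passed the edgeR threshold for 8 of the 15 named members. Of all transcripts tested, 15.3% were called more animal and 18.7% more vegetal. TRINITY_GG_81340_c0_g1_i1_1, TRINITY_DN51062_c0_g1_i3_1, TRINITY_GG_46416_c0_g1_i1_1 and TRINITY_GG_117528_c0_g1_i2_1 were named for this difference, so the count of 8 follows in part from the choice of names. The difference was -0.69 ± 0.17 (SE) for TRINITY_GG_81340_c0_g1_i1_1, -0.68 ± 0.13 for TRINITY_DN51062_c0_g1_i3_1, -0.65 ± 0.21 for TRINITY_DN48002_c3_g2_i2_1 and -0.48 ± 0.20 for TRINITY_DN48237_c0_g1_i1_1. It was -0.43 ± 0.07 for TRINITY_DN55143_c0_g1_i1_1 and -0.23 ± 0.07 for TRINITY_DN54336_c1_g1_i4_1, the most abundant members. It was positive, at 0.33 ± 0.11 and 0.29 ± 0.12, for TRINITY_GG_46416_c0_g1_i1_1 and TRINITY_GG_117528_c0_g1_i2_1. Oocyte stage, female and the amount of RNA per library cannot be told apart in these differences.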

How the results depend on the processing

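Of 136 alternatives to the counts of members, 98 stayed within 1.5 times the reported count, 32 gave fewer and 6 gave more. A count of members cannot turn its direction, so these alternatives say nothing on direction. Of 159 alternatives for the named members, 148 kept the call, 11 lost it and 0 reversed. Scaling by library totals gave 6 vegetal and 74 animal members in big oocytes, 4 with D above B and 40 with B above D. It gave 31 uneven in small oocytes, and 0 and 56 with a more vegetal and a more animal gradient in big oocytes. The shares of all transcripts called under this scaling are given above. DESeq2 gave 9 with D above B, against 13.8% of all transcripts. In small oocytes it gave 7 uneven, 1 vegetal and 14 with C above the ends, against 11.4%, 4.57% and 2.85%. Members with a more vegetal gradient in big oocytes numbered 2 with TMM and 2 without the filter, in place of 4. Of all transcripts, 16.6% and 12.6% were called in these settings. The cause was not tested.

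Leaving out an oocyte gave 11 to 21 vegetal and 24 to 41 animal members in big oocytes. Of all transcripts tested, 23.3% to 27.0% and 21.2% to 26.4% were then called. There were 5 to 15 with D above B, against 12.3% to 15.9%, and 5 to 10 with B above D, against 8.24% to 12.8%. In small oocytes there were 8 to 18 uneven members, against 10.6% to 13.3% of all transcripts. Vegetal members numbered 1 to 10, against 4.28% to 5.62%, and animal ones 0, against 2.98% to 5.45%. C was above the ends for 11 to 23, against 2.7% to 3.48%, and below for 0 to 1, against 4.2% to 4.95%. Between the sizes, 1 to 4 members had a more vegetal gradient in big oocytes, against 15% to 18.1% of all transcripts. A more animal one was called for 14 to 29, against 12.4% to 15.1%. The total was higher in big oocytes for 46 to 58, against 25.7% to 28.7%, and lower for 37 to 44, against 25.6% to 27.9%. The rule kept 73 to 87 of the 150 members without a big oocyte, 77 with a minimum of 100, 49 with a minimum of 500 and 118 with library totals.

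Without the oocyte as a replicate block there were 20 vegetal and 34 animal members in big oocytes, against 27.6% and 25.7% of all transcripts. D was above B for 12 and below B for 7, against 15.7% and 12%. In small oocytes 18 were uneven, against 14.9%, and 3 were vegetal and 1 animal, against 6.12% and 5.33%. C of small oocytes was above the ends for 21 and below for 1, against 4.49% and 5.57%. With the replicate block the gradient differed for 5 (more vegetal) and 28 (more animal), against 18.8% and 15.5%. The median member had 60.5 to 95.5 counts in C of a small oocyte, which gives a counting error of 10.2% to 12.9% and limits what a difference of a few percent can show.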
